A study of Homo sapiens with 4 samples.

Results

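HOX genes encode homeodomain transcription factors that specify position along the head-to-tail axis of the embryo. In mammals they lie in 4 clusters, HOXA to HOXD. The genes of a cluster share a direction of transcription and are numbered by paralog group, so that low numbers mark genes used anteriorly and high numbers genes used posteriorly. The clusters are classical targets of Polycomb repressors and of MLL-type activators. HOX proteins bind DNA together with cofactors of the PBX, MEIS and PKNOX families. Adult epithelia, the urinary tract included, keep tissue-specific sets of HOX genes on, and tumours often express altered sets.

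The HOX cluster genes were taken as every protein-coding row of the count table whose symbol is HOXA, HOXB, HOXC or HOXD followed by a number. The rule found 39 genes among the 61860 listed, 11 in HOXA, 10 in HOXB, 9 in HOXC and 9 in HOXD. The counts come from total RNA of HT1376, an established bladder cancer cell line, collected at 48 h, in 2 samples given a control that the labels call WFI and 2 given enfortumab vedotin (EV) at 1 nM. EV is an antibody-drug conjugate that binds nectin-4 and carries the microtubule poison monomethyl auristatin E. All 4 samples are the same line with no genetic change named in the labels, and the labels do not say whether the 2 samples of a group were separate cultures, so the p-values rest on a spread that could be purely technical.

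Totals ran from 19368791 to 20727175 counts per sample. CPM here means TMM-scaled counts relative to library size. With edgeR's quasi-likelihood test 11528 of 17465 genes tested changed between the groups (66.0%), 6019 higher (34.5%) and 5509 lower (31.5%) in EV at a Benjamini-Hochberg adjusted p below 0.05. The urothelial markers were present only in part. Of 18 urothelial genes listed, 9 passed the count filter, of which 8 were higher in EV and 0 lower. KRT5, TP63, UPK1A and EPCAM passed it only through their EV counts, so their calls are no independent evidence of a rise. ELF3 leaned lower but was not called (log2 fold change -0.74, adjusted p = 0.0882 by edgeR). KRT19, below the filter, had 1 and 6 counts under WFI, then 0 and 1 under EV. The summed level of all 18 was 506 and 496 CPM in the controls and 858 and 864 CPM in EV. KRT5 had 0 counts in both controls, then 97 and 134 under EV. KRT20 had 0 counts in all samples, CDH1 had 1 count in the controls and 16 in EV, and KRT7 stood at 436 ± 7.90 CPM in the controls and 750 ± 3.68 CPM in EV (SD, n = 2). Leukocyte, fibroblast, endothelial and erythroid marker lists summed to at most 2.54, 12.2, 13.7 and 0 CPM in a control and 43.3, 13.6, 22.3 and 0.621 CPM in an EV sample. The rise of the leukocyte sum lay in ITGAM, CD14 and CD79A, while PTPRC and CD3E had 13 and 4 counts over both EV samples. The part of these marker shifts, urothelial ones included, in the HOX values was not tested. In bulk RNA a change in the make-up of the cells and a change in RNA per cell cannot be told apart.

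Most HOX genes were on in these cells. A gene was called on in a group when both samples had at least 1 CPM, silent when the samples summed to at most 3 counts, and low otherwise. In the controls 29 of 39 were on, 4 were low and 6 were silent. In EV 28 were on, 10 were low and 1 was silent. The same 28 were on in both groups, and the other gene on in the controls, HOXA2, slipped under the limit in 1 EV sample (0.880 CPM). HOXB was the most complete cluster, with 9 of 10 genes on in each group. HOXA had 7 of 11 on in the controls and 6 in EV, HOXC had 6 of 9 in each, and HOXD had 7 of 9 in each.

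Of the 10 genes not on in the controls, 6 were posterior (paralog groups 9 to 13), 3 central (groups 4 to 8) and 1 anterior (groups 1 to 3). HOXD13, the last gene of HOXD and a gene of limb and urogenital patterning, had 1 and 1 counts under WFI, then 0 and 2 under EV. The posterior genes HOXA11 and HOXC11 had 0 counts in both controls, with 6 and 1 counts and 8 and 1 counts in the EV samples. HOXC12 went from 0 and 1 counts to 7 and 14 counts. At the opposite end HOXB1, which patterns the hindbrain, had 0 counts in both controls but 4 and 15 under EV. HOXA7, in the middle of its cluster, had 1 and 0 counts under WFI, then 1 and 4 under EV, and HOXA6 had 12 and 4 and then 5 and 7. These 7 genes did not reach the edgeR count filter and have no test in the main analysis. DESeq2, which was run without that filter, called HOXB1 (adjusted p = 0.0122) and HOXC12 (0.0412) higher in EV, as did edgeR with no count filter (adjusted p = 0.0108 and 0.0227). Their levels stayed below 1 CPM in each EV sample. Both were tested but not called by edgeR without WFI replicate 1 or without WFI replicate 2. Both were silent in the controls and enter a test only through their EV counts, so their calls are no independent evidence of a rise.

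**Figure D1:**
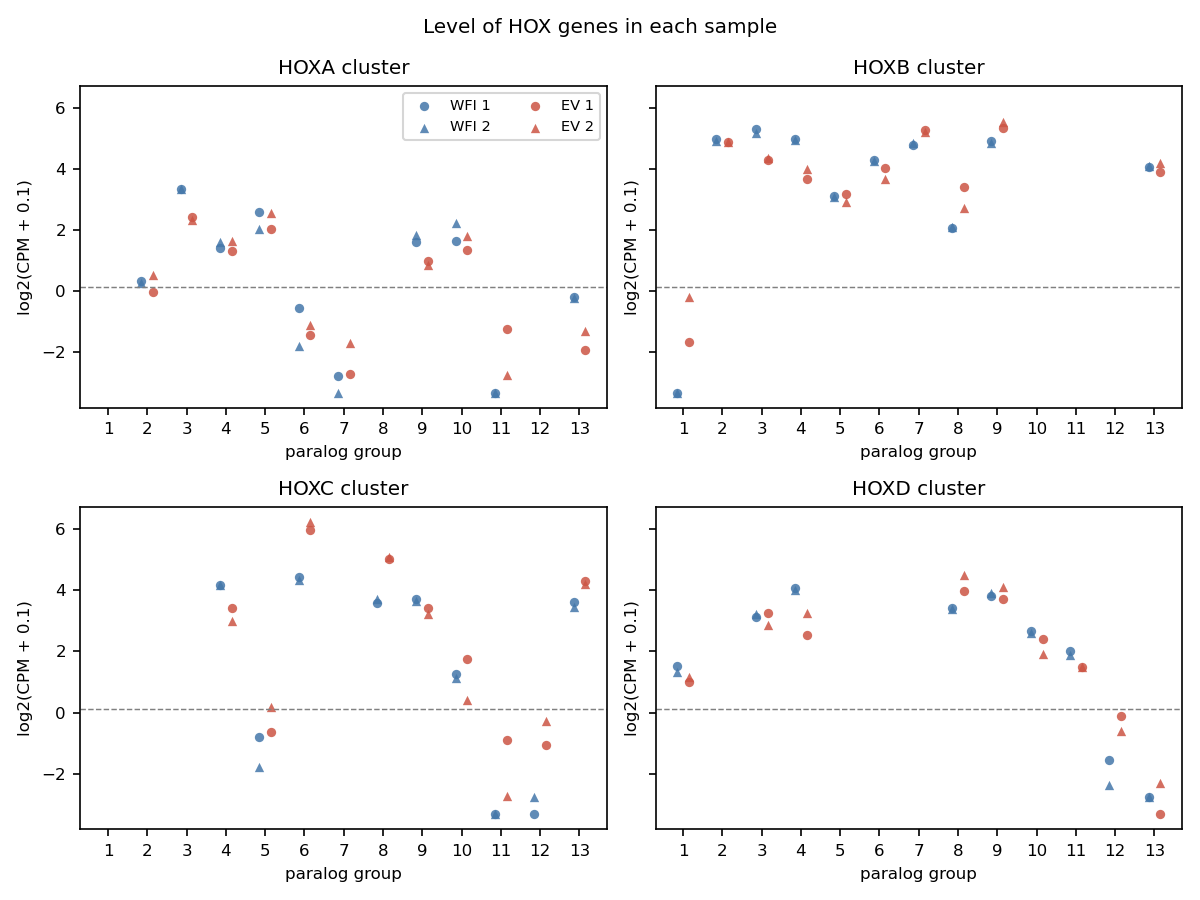
Level of HOX genes in each sample, as log2(CPM + 0.1) on the vertical axis, against paralog group on the horizontal axis, with 1 panel per cluster. Circles are replicate 1 and triangles replicate 2, blue for WFI and red for EV, and the dashed line marks 1 CPM. HOXB2 to HOXB9 lie above the line in all samples, while HOXA11, HOXB1, HOXC11, HOXC12 and HOXD13 lie below it.

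Of the 39 genes, 32 passed the filter, and 17 of these changed (53.1%), against 66.0% of all genes tested. By direction, 8 rose (25.0%, against 34.5% of all genes) and 9 fell (28.1%, against 31.5%). The median log2 fold change was -0.05 over the tested HOX genes and 0.02 over all genes. Changes of at least 1 in absolute log2 fold change were called for 8 HOX genes, 4 higher and 4 lower (25.0%, against 30.8% of all genes). The share of HOX genes called was below that of all genes. Of the 17 calls, 12 held in each of 11 other analyses, 6 higher and 6 lower. The 5 that did not are HOXA9, HOXA13, HOXB6, HOXB7 and HOXD12, of which HOXA13 and HOXD12 passed the count filter only through the group where they were high.

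By position the calls were as follows, beside 34.5% higher and 31.5% lower over all genes tested. Among the anterior genes, paralog groups 1 to 3, 7 were tested, 3 fell and 0 rose in edgeR's test, also 0 at an unadjusted p under 0.05, but HOXB1 did not pass the count filter. HOXB1 was called higher with DESeq2 and, in edgeR, with no count filter (adjusted p = 0.0108) and without EV replicate 1. It was tested but not called without WFI replicate 1 or without WFI replicate 2. With 0 counts in both controls, HOXB1 enters a test only through its EV counts, so its calls are no independent evidence of a rise. Among the central genes, groups 4 to 8, 13 were tested, 5 rose and 4 fell. Among the posterior genes, groups 9 to 13, 12 were tested, 3 rose and 2 fell, but the posterior falls numbered 0 to 4 over the 11 other analyses, 0 with DESeq2 and without WFI replicate 1, WFI replicate 2 or EV replicate 2, and 4 with an offset for spliced length. Without HOXA13 and HOXD12, 10 posterior genes were tested, 2 rose and 1 fell. The summed level of the anterior genes was 99.5 ± 2.94 CPM in the controls and 69.2 ± 1.16 CPM in EV, and that of the central genes 177 ± 2.86 and 229 ± 12.2 CPM (SD, n = 2). Most of the central rise lay in HOXC6, which alone went from 20.6 ± 0.969 to 68.6 ± 8.65 CPM. The posterior sum was 105 ± 0.577 CPM in the controls and 120 ± 5.03 CPM in EV. Paralog groups 4 and 8 moved most uniformly across clusters. In group 4, HOXB4, HOXC4 and HOXD4 fell and HOXA4 did not pass the test. In group 8, all 3 genes, HOXB8, HOXC8 and HOXD8, rose. These counts for groups 4 and 8 were the same in all 11 other analyses. The groups were picked out after their values were seen.

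**Figure D2:**
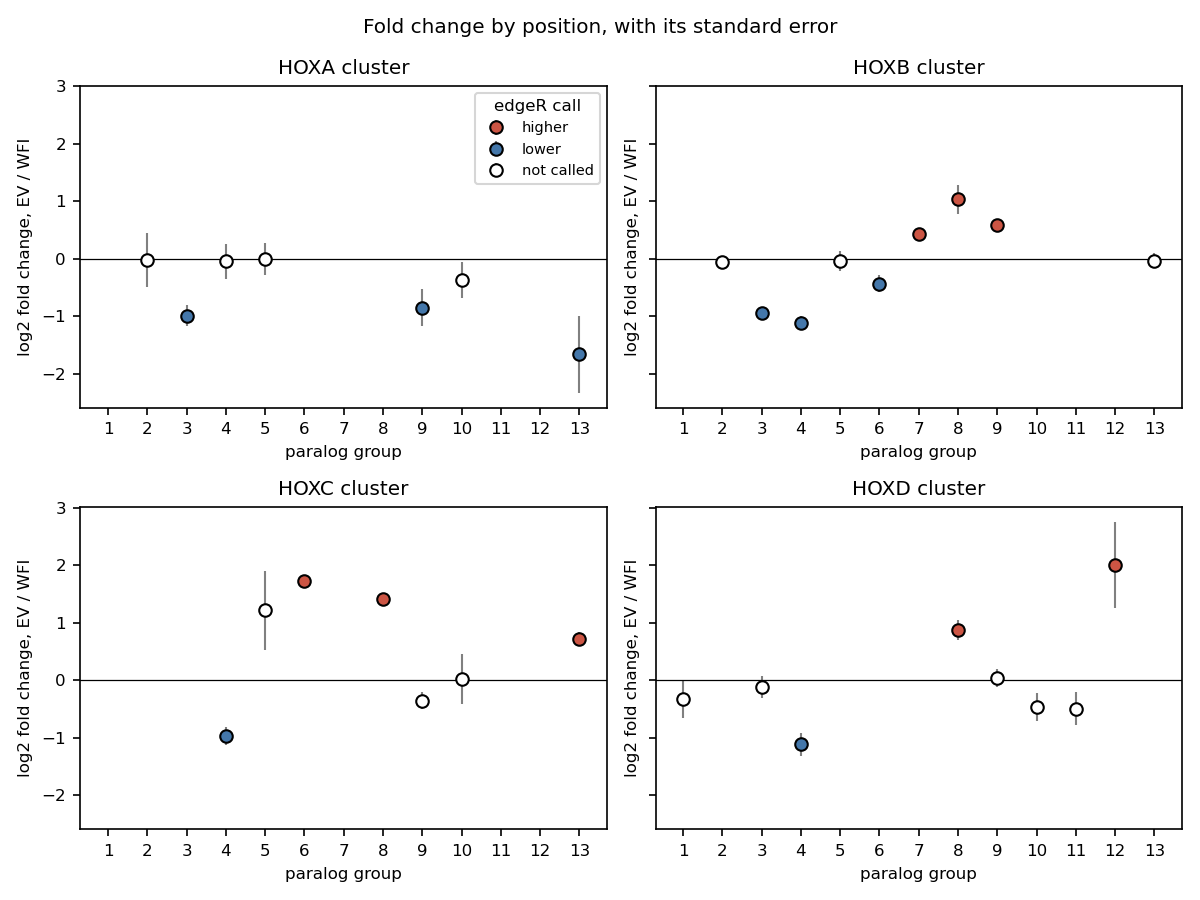
Log2 fold change of EV over WFI for tested HOX genes, with its standard error, against paralog group, with 1 panel per cluster. Red points were called higher, blue points lower and open points were not called by edgeR at an adjusted p below 0.05. Calls in HOXA are all lower, and in HOXB, HOXC and HOXD group 4 lies below 0 and group 8 above it.

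HOXC6 and HOXC8 had the highest fold changes among the 6 rises that held in all 11 other analyses. HOXC6, expressed in the developing trunk and often raised in carcinomas, had 21.3 and 19.9 CPM in the controls and 62.4 and 74.7 CPM in EV. That is a 3.33-fold rise (log2 fold change 1.74 ± 0.10 SE, adjusted p = 6.93e-08 by edgeR). HOXC8, a gene of thoracic patterning, had 12.0 and 12.9 CPM in the controls and 32.3 and 34.1 CPM in EV, a 2.67-fold rise (1.42 ± 0.11 SE, adjusted p = 6.5e-07 by edgeR). Both EV samples lay above both controls by more than the spread within either group. HOXC13, a regulator of hair and nail keratins, had 12.2 and 10.9 CPM in the controls and 19.6 and 18.5 CPM in EV, a 1.65-fold rise (0.72 ± 0.13 SE, adjusted p = 0.000471 by edgeR). HOXC4, at the anterior end of the cluster, moved the other way. It had 17.9 and 18.0 CPM in the controls and 10.6 and 7.80 CPM in EV (log2 fold change -0.97 ± 0.16 SE, adjusted p = 0.000255 by edgeR).

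HOXC4, HOXC5 and HOXC6 are annotated by RefSeq from the same first base, 54016888 on the plus strand of chromosome 12, yet HOXC4 fell and HOXC6 rose. In GENCODE 29 their first bases differ, 54016931 for HOXC4, 54032853 for HOXC5 and 53990624 for HOXC6. The 250 bases before the RefSeq start are the window listed for both HOXC4 and HOXC5 (GRCh38.p14, chr12:54016638-54016887). It is shown here because HOXC4 and HOXC6, with a common RefSeq start, went in opposite directions. Capitals mark CG dinucleotides.
HOXC4 and HOXC5: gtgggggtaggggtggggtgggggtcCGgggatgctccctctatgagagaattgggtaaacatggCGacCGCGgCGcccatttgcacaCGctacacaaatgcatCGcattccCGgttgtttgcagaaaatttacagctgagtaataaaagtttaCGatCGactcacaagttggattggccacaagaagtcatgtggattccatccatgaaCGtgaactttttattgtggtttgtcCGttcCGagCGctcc
The window holds 14 CG dinucleotides, near the median of 11 over 35114 promoter windows of this length. Counts per gene do not show which start was used. In GENCODE 29 the exons of HOXC4 and HOXC6 share 484 bases, 17.8% of HOXC4 and 13.7% of HOXC6, so reads could be split between them. HOXC5 itself was low, with 10 and 4 counts under WFI, then 10 and 20 under EV (log2 fold change 1.22 ± 0.69 SE, adjusted p = 0.143 by edgeR). It shares 1081 exon bases (59.9%) with ENSG00000273046 and 611 (33.9%) with ENSG00000273049, both counted genes of the same strand. Reads of HOXC5 could therefore be counted elsewhere or left out, which was not tested.

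The remaining HOXC genes did not pass the test. HOXC9 stood at 12.7 ± 0.490 CPM in the controls and 9.95 ± 0.928 CPM in EV (log2 fold change -0.36 ± 0.15 SE, adjusted p = 0.0519 by edgeR). HOXC10 gave 2.28 and 2.10 CPM in the controls and 3.24 and 1.24 CPM in EV, so its EV samples lay on either side of the controls. As a share of all HOX counts, HOXC went from 20.5% and 20.3% in the controls to 34.4% and 34.3% in EV. HOXB went from 53.9% and 53.5% to 46.9% and 45.0%, HOXA from 9.1% and 9.5% to 5.2% and 5.4%, and HOXD from 16.5% and 16.7% to 13.5% and 15.2%. The summed level of all 39 genes was 381 ± 6.38 CPM in the controls and 418 ± 16.1 CPM in EV (SD, n = 2).

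**Figure D3:**
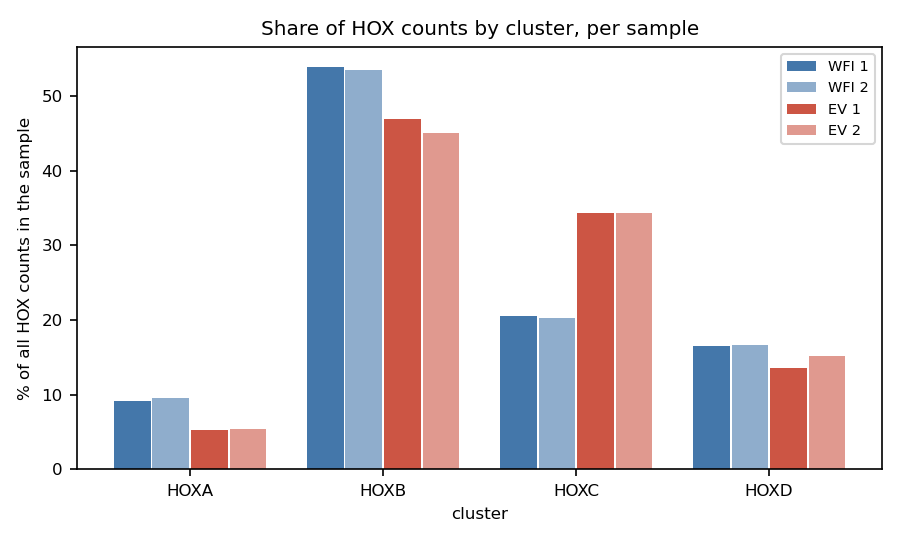
Share of all HOX counts that fell in each cluster, in percent on an axis from 0, with 1 bar per sample, blue for WFI and red for EV. The HOXC bars rise from 20.5% and 20.3% to 34.4% and 34.3%, and the HOXA, HOXB and HOXD bars are lower in EV than in WFI. The shares of a sample add up to a fixed whole, so a larger HOXC share lowers the others.

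In HOXB the falls were HOXB3, HOXB4 and HOXB6, and the rises HOXB7, HOXB8 and HOXB9. HOXB3 had 39.4 and 36.1 CPM in the controls and 19.3 and 20.2 CPM in EV (log2 fold change -0.93 ± 0.10 SE, adjusted p = 9.77e-06 by edgeR). HOXB4, known for its use in expanding blood stem cells, had 31.1 and 30.6 CPM in the controls and 12.6 and 15.9 CPM in EV (-1.11 ± 0.12 SE, adjusted p = 1.42e-05 by edgeR). Both EV samples lay below both controls for each gene. HOXB6 fell less, from 19.4 and 18.9 CPM to 16.0 and 12.5 CPM (-0.43 ± 0.14 SE, adjusted p = 0.0182 by edgeR). Leaving out WFI replicate 1 or EV replicate 2 ended its call (adjusted p = 0.0623 and 0.0604 by edgeR). The exons of HOXB3 share 159 bases with HOXB4 and 433 with HOXB6 on the same strand, so their counts are not fully separate.

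From HOXB7 to HOXB9 the direction was the opposite. HOXB7, frequently expressed in carcinomas, had 27.4 and 28.3 CPM in the controls and 38.4 and 36.5 CPM in EV (log2 fold change 0.43 ± 0.09 SE, adjusted p = 0.00158 by edgeR). HOXB8, known for holding myeloid progenitors in an immature state, had 4.07 and 4.16 CPM in the controls and 10.4 and 6.51 CPM in EV (1.04 ± 0.25 SE, adjusted p = 0.00381 by edgeR). HOXB9 had 29.7 and 28.3 CPM in the controls and 40.6 and 46.2 CPM in EV (0.58 ± 0.09 SE, adjusted p = 0.000255 by edgeR). All 3 genes were higher in both EV samples than in either control. The rise of HOXB7 was called in 10 of the 11 other analyses, but not with an offset for spliced length. With that offset its log2 fold change was -0.026 (edgeR adjusted p = 0.812). The cause of this difference was not tested.

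HOXB2, HOXB5 and HOXB13 did not pass the test. HOXB2, a hindbrain gene, stood at 30.6 ± 1.37 CPM in the controls and 29.5 ± 0.0174 CPM in EV (log2 fold change -0.06, SE 0.09). HOXB5 stood at 8.44 ± 0.247 and 8.25 ± 1.08 CPM (-0.03, SE 0.18). HOXB13, a lineage factor of prostate and distal gut that lies apart from the rest of the cluster, stood at 16.8 ± 0.426 and 16.4 ± 2.21 CPM (-0.03, SE 0.13). Their edgeR adjusted p were 0.622, 0.877 and 0.837. HOXB spans 200.7 kb on the minus strand of chromosome 17 (GENCODE 29, 48528526 to 48729178).

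HOXD showed the same opposition between groups 4 and 8. HOXD4 had 16.9 and 15.9 CPM in the controls and 5.72 and 9.45 CPM in EV (log2 fold change -1.11 ± 0.20 SE, adjusted p = 0.00059 by edgeR). HOXD8, the next gene on its posterior side, had 10.6 and 10.4 CPM in the controls and 15.8 and 22.6 CPM in EV (0.87 ± 0.17 SE, adjusted p = 9e-04 by edgeR). The EV samples of both genes were further apart than the controls but did not reach them. The 250 bases before the RefSeq starts of these neighbours are shown because the genes moved in opposite directions, with CG dinucleotides in capitals. The windows are chr2:176129455-176129704 for HOXD8 and chr2:176151300-176151549 for HOXD4 (GRCh38.p14, plus strand). In GENCODE 29 HOXD4 begins at 176151222, ahead of its window, and HOXD8 at 176129694, inside its window.
HOXD8: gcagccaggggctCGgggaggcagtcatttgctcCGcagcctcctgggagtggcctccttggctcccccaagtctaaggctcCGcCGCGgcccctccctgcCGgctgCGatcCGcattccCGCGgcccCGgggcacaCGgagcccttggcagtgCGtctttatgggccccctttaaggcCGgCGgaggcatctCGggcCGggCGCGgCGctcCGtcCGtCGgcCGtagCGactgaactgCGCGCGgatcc
HOXD4: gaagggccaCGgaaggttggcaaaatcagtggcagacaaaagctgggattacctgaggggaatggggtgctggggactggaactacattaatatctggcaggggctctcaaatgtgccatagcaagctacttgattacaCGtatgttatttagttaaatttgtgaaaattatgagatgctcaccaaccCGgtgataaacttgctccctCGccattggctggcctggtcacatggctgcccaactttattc
The HOXD8 window holds 28 CG dinucleotides and a GC content of 72.4%, and 84.1% of all promoter windows hold fewer. The HOXD4 window holds 4 and a GC content of 47.6%, and 29.3% of windows hold fewer. Across the 27 windows listed for 20 HOX genes, the HOX-PBX motif TGATTNAT was found on either strand in 2, at HOXA2 and HOXD11, against 2.5% of all windows. The MEIS motif TGACAG was found in 2, at HOXA2 and HOXA4, against 13% of all windows. The 3 printed windows held neither motif. These are letter matches only.

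Of the other HOXD genes, only HOXD12, near the floor, was called. HOXD9 had 14.1 and 15.1 CPM in the controls and 13.1 and 17.0 CPM in EV (log2 fold change 0.04 ± 0.15 SE, adjusted p = 0.819 by edgeR). HOXD10, a gene linked to suppression of invasion, stood at 6.11 ± 0.260 and 4.44 ± 1.10 CPM (-0.46 ± 0.24 SE, adjusted p = 0.115 by edgeR). HOXD11 stood at 3.78 ± 0.272 and 2.69 ± 0.00554 CPM (-0.49 ± 0.28 SE, adjusted p = 0.144 by edgeR). HOXD10 and HOXD11 share 452 exon bases on the same strand, so their values are not independent. HOXD1 (2.57 ± 0.261 and 2.05 ± 0.173 CPM) and HOXD3 (9.02 ± 0.428 and 8.34 ± 1.65 CPM) had edgeR adjusted p of 0.404 and 0.609. HOXD12 had 5 and 2 counts under WFI, then 15 and 11 under EV (2.00 ± 0.75 SE, adjusted p = 0.0354 by edgeR). It passed the filter only through its EV counts, and its call was lost in 8 of the 10 other analyses that tested it, among them each that left out 1 of the 4 samples (adjusted p 0.0693 to 0.440 by edgeR) and DESeq2 (0.130).

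HOXA had 4 lower calls and 0 higher ones in edgeR's test, 0 also at an unadjusted p under 0.05 and with DESeq2, and its lower calls numbered 2 or 3 in the other analyses. They were 2 with DESeq2, with no count filter, and without WFI replicate 1, WFI replicate 2 or EV replicate 2. HOXA3, needed for the thymus and parathyroid glands, had 10.0 and 10.1 CPM in the controls and 5.22 and 4.96 CPM in EV (log2 fold change -0.99 ± 0.18 SE, adjusted p = 0.000557 by edgeR). Both EV samples were well below both controls. HOXA9, a driver of acute leukaemias, had 2.95 and 3.49 CPM in the controls and 1.87 and 1.70 CPM in EV (-0.85 ± 0.32 SE, adjusted p = 0.0375 by edgeR). This call did not hold with DESeq2 (adjusted p = 0.0754) and, in edgeR, with no count filter (adjusted p = 0.0556) or without WFI replicate 1 (adjusted p = 0.0768), WFI replicate 2 (0.210) or EV replicate 2 (0.0549). HOXA13, a gene of the distal limb and the urogenital tract, had 16 and 16 counts under WFI, then 3 and 6 under EV (-1.66 ± 0.67 SE, adjusted p = 0.0478 by edgeR). It passed the filter only through its control counts, and its call was lost in all 10 other analyses that tested it (adjusted p 0.0501 to 0.379 by edgeR, 0.153 by DESeq2).

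The middle of HOXA gave no call. HOXA4 stood at 2.76 ± 0.281 CPM in the controls and 2.68 ± 0.447 CPM in EV, and HOXA5 at 4.91 ± 1.34 and 4.90 ± 1.33 CPM (SD, n = 2). HOXA2 stood at 1.13 ± 0.0443 and 1.11 ± 0.328 CPM. HOXA10, a uterine and blood-cell regulator, stood at 3.80 ± 1.05 and 2.94 ± 0.661 CPM (log2 fold change -0.37 ± 0.31 SE, adjusted p = 0.328 by edgeR). The samples of the 2 groups overlapped for each of these 4 genes. HOXA spans 107.1 kb of the minus strand of chromosome 7 (27092993 to 27200106), HOXC 117.3 kb of the plus strand of chromosome 12 (53938765 to 54056030) and HOXD 98.0 kb of the plus strand of chromosome 2 (176092891 to 176190907), in GENCODE 29 on GRCh38.

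Levels between genes were compared per kb of merged exon length. In the controls HOXB7 was highest at 18.2 ± 0.458 CPM per kb, followed by HOXB2 at 13.1 ± 0.585, HOXB9 at 11.2 ± 0.379 and HOXD4 at 11.2 ± 0.473 (SD, n = 2). HOXB9 and HOXD4 did not differ beyond their spread. In EV HOXB7 was still highest at 24.5 ± 0.882 CPM per kb, now followed by HOXC6 at 19.4 ± 2.44, HOXC8 at 17.6 ± 0.661 and HOXB9 at 16.8 ± 1.53. The last 3 lay within each other's spread. HOXC6 moved from rank 11 to rank 2 of the 39 genes and HOXC8 from rank 9 to rank 3, while HOXD4 went from rank 3 to rank 11 and HOXB4 from rank 5 to rank 15.

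**Figure D4:**
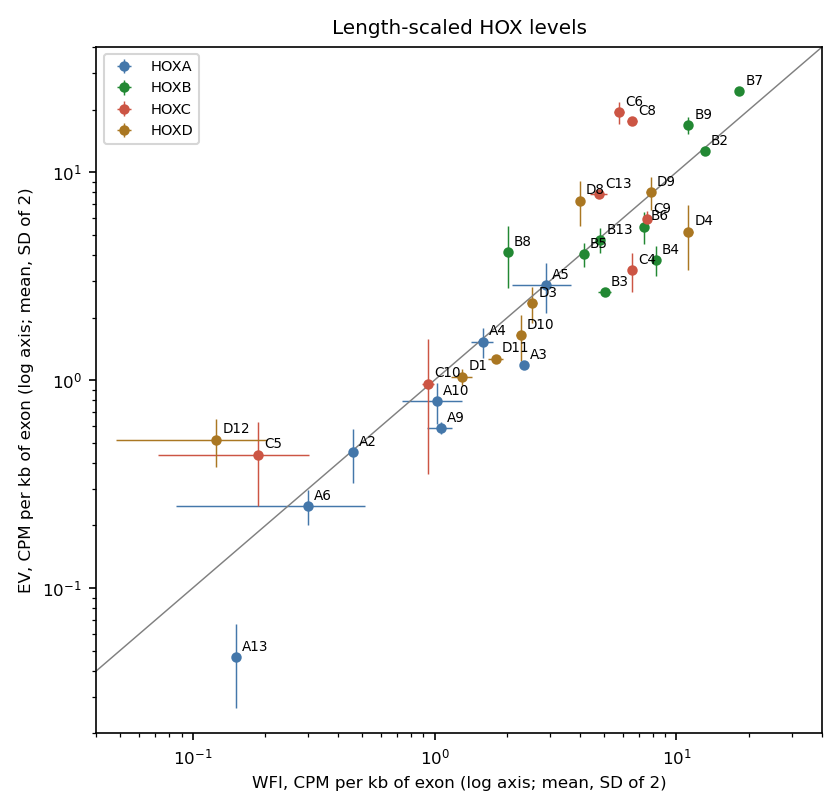
Length-scaled level of HOX genes with at least 0.1 CPM per kb in the controls, WFI on the horizontal and EV on the vertical log axis, as mean and SD of 2 samples, coloured by cluster and labelled by gene number. The diagonal marks equal levels. HOXC6 and HOXC8 lie above it near 20 CPM per kb in EV, and HOXA3, HOXB3, HOXB4, HOXC4 and HOXD4 lie below it.

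HOX genes are short. Their median merged exon length was 2440.5 bases among the 32 tested, against 4377 bases over all genes tested that have a length. With a per-sample offset for that length, 6 HOX genes were higher and 12 lower, against 8 and 9 without it. The genes added to the lower side were HOXB2, HOXC9, HOXD10 and HOXD11, with edgeR adjusted p of 0.00502, 0.000714, 0.0214 and 0.0215. HOXA13 lost its lower call, and HOXB7 and HOXD12 lost their higher calls. HOXC6, HOXC8, HOXC13, HOXB8, HOXB9 and HOXD8 remained higher.

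Genes of the TALE class of homeodomain proteins had calls in both directions. The list holds the PBX, MEIS and PKNOX cofactors of HOX proteins and also TGIF1 and TGIF2, which are of the class but outside these families. Of 11 listed, 9 were tested, 4 rose and 4 fell, with a median log2 fold change of 0.07. With the filter of 50 counts 3 rose and 4 fell. Over all genes 34.5% rose and 31.5% fell, with a median of 0.02. MEIS1, the cofactor most studied together with HOXA9, had 4.69 ± 0.145 CPM in the controls and 21.9 ± 0.392 CPM in EV (log2 fold change 2.22 ± 0.14 SE, adjusted p = 1.33e-07 by edgeR). PBX3 had 54.4 ± 2.91 and 127 ± 2.46 CPM (1.22 ± 0.06 SE, adjusted p = 1.33e-08 by edgeR), and PBX4 had 1.56 ± 0.0879 and 3.97 ± 0.0619 CPM (1.34 ± 0.31 SE, adjusted p = 0.0028 by edgeR). MEIS2 fell by 0.51, MEIS3 fell by 0.36, PKNOX1 fell by 0.71 and TGIF2 fell by 0.70 on the log2 scale, and TGIF1 did not pass (0.07, edgeR adjusted p = 0.296). The fall of MEIS2 was not called with the length offset (-0.028, edgeR adjusted p = 0.875) or without WFI replicate 1 (0.110), nor that of MEIS3 without WFI replicate 2 (0.123).

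Regulators of HOX chromatin were read against the same background of 34.5% higher and 31.5% lower. Of 29 Polycomb genes, 27 were tested, 9 rose and 14 fell, with a median log2 fold change of -0.26 against 0.02 over all genes. RYBP, a subunit of the Polycomb complexes that ubiquitinate histone H2A, went from 54.7 ± 2.84 to 429 ± 0.743 CPM (2.97 ± 0.05 SE as a log2 fold change), and PHC3 from 85.4 ± 1.56 to 24.6 ± 1.39 CPM (-1.79, SE 0.07). Their edgeR adjusted p were 1.35e-12 and 3.93e-09. Of the core of the methylating complex, EZH2 and EED rose by 0.83 and 1.41 in log2 fold change and SUZ12 fell by 0.28. SUZ12 was not called with the length offset (edgeR adjusted p = 0.134). Of 27 genes of MLL and menin complexes and other listed HOX regulators, all tested, 6 rose and 16 fell, with a median of -0.48. The other regulators include ASXL1 and ASXL2, which fell by 1.09 and 1.85, CTCF, which rose by 0.37, and RAD21, which was not called. KMT2A, the MLL methyltransferase that maintains HOX expression, moved from 194 ± 11.0 to 25.3 ± 0.476 CPM (-2.94, SE 0.06), KMT2D from 282 ± 0.386 to 64.8 ± 4.07 CPM (-2.12, SE 0.05) and KMT2C from 99.8 ± 0.328 to 19.4 ± 0.327 CPM (-2.36, SE 0.07). Their edgeR adjusted p were 2.01e-11, 4.01e-11 and 2.67e-10. The length offset left 6 higher and 13 lower in this list, and 9 and 11 in the Polycomb list, with KMT2A at -1.98. The lower members of the MLL list numbered 15 to 17 in the other analyses and the higher ones 3 to 8, the lowest without WFI replicate 2.

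Of 17 genes of retinoic acid signalling, an inducer of anterior HOX genes, 12 were tested, with a median log2 fold change of -0.23. Of these, 5 rose and 5 fell (34.5% and 31.5% of all genes). With the filter of 50 counts 2 rose, and fewer than 5 also rose without WFI replicate 2. RXRG, CYP26A1 and ALDH1A2, called higher, passed the count filter only through their EV counts. Their calls are no independent evidence of a rise. ALDH1A3, which makes retinoic acid, went from 580 ± 0.572 to 308 ± 0.552 CPM (-0.91 ± 0.03 SE as a log2 fold change), DHRS3, which reduces retinal, from 81.3 ± 5.25 to 22 ± 0.0678 CPM (-1.88, SE 0.08), and the receptor RXRA from 165 ± 1.81 to 91.6 ± 1.35 CPM (-0.85, SE 0.05). Their edgeR adjusted p were 7.56e-10, 4.83e-09 and 3.79e-08. Of 6 geminin and HOX-binding regulators, all tested, 2 rose and 4 fell, with a median of -0.55, and GMNN, which encodes geminin, rose by 1.36 in log2 fold change. HIPK2, CREBBP and EP300 fell by 1.80, 0.73 and 0.75 on the log2 scale. With the length offset 3 rose and 2 fell, and CREBBP stood at -0.032 (edgeR adjusted p = 0.536). Of 9 ParaHOX and EVX relatives, 8 lay below the filter and 5 had 0 counts in all samples. MNX1 was the only relative tested (0.48 ± 0.19 SE, adjusted p = 0.0465 by edgeR), and its call was lost in 6 of 11 other analyses, among them each that left out a control or EV replicate 1.

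Many noncoding genes inside the clusters share exon bases with HOX genes on the opposite strand, HOXB-AS3 and HAGLR among them, while the strand setting of the counting is not given in the sources used here. Values of such genes are therefore uncertain. Of 24 listed, 13 were tested, 3 rose and 5 fell, against 34.5% and 31.5% of all genes, and the median was -0.45 against 0.02 (log2 fold change). HOXB-AS3, opposite HOXB5 and HOXB6, had 228 and 179 counts under WFI, then 68 and 70 under EV (log2 fold change -1.41 ± 0.21 SE, adjusted p = 0.000144 by edgeR). HOXB-AS2 had 33 and 22 counts under WFI, then 0 and 0 under EV, at least 8.28-fold lower against a floor of 3 counts per EV library. It passed the count filter only through its control counts, so its call is no independent evidence of a difference. HAGLR, opposite HOXD1 and HOXD3, went from 36.7 ± 0.348 to 26.9 ± 0.849 CPM (-0.45 ± 0.09 SE, adjusted p = 0.00115 by edgeR). HOTAIRM1, at the anterior end of HOXA, went from 5.56 ± 1.10 to 9.80 ± 0.961 CPM (0.82 ± 0.20 SE, adjusted p = 0.00404 by edgeR). The call of HOTAIRM1 was lost without WFI replicate 2 (edgeR adjusted p = 0.0703) and with the length offset (0.138). Higher members numbered 0 without WFI replicate 2 and with the length offset, and 1 without WFI replicate 1 and with no count filter. With the filter of 50 counts 2 were higher and 2 lower. Without WFI replicate 2 the lower members numbered 3. HOTAIR had 1 and 1 counts under WFI, then 4 and 9 under EV.

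Of 20 tested genes that flank the clusters, 7 were higher and 8 lower, near the shares over all genes (34.5% and 31.5%), and the median log2 fold change was -0.05 against 0.02. Beside HOXC, HNRNPA1 went from 686 ± 5.58 to 2310 ± 26.9 CPM (1.75 ± 0.03 SE as a log2 fold change), CBX5 from 222 ± 3.19 to 58.6 ± 4.65 CPM (-1.92, SE 0.06) and CALCOCO1 from 62.6 ± 3.21 to 31.4 ± 1.48 CPM (-0.99, SE 0.08). Their edgeR adjusted p were 9.54e-13, 2.59e-10 and 9.64e-07. Beside HOXA, SKAP2 and HIBADH fell by 0.60 and 0.36 on the log2 scale. Beside HOXB, CBX1 rose by 0.21 and CALCOCO2 fell by 0.25, and beside HOXD, LNPK fell by 0.51 and MTX2 rose by 0.43. With the length offset 6 flanking genes were higher and 5 lower, and CBX1, CALCOCO2, LNPK and MTX2 were not called, at 0.007, 0.066, -0.134 and 0.010. CBX1 also lost its call with no count filter (edgeR adjusted p = 0.0518) and without WFI replicate 1 (edgeR adjusted p = 0.0799) and WFI replicate 2 (0.0534).

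**Figure D5:**
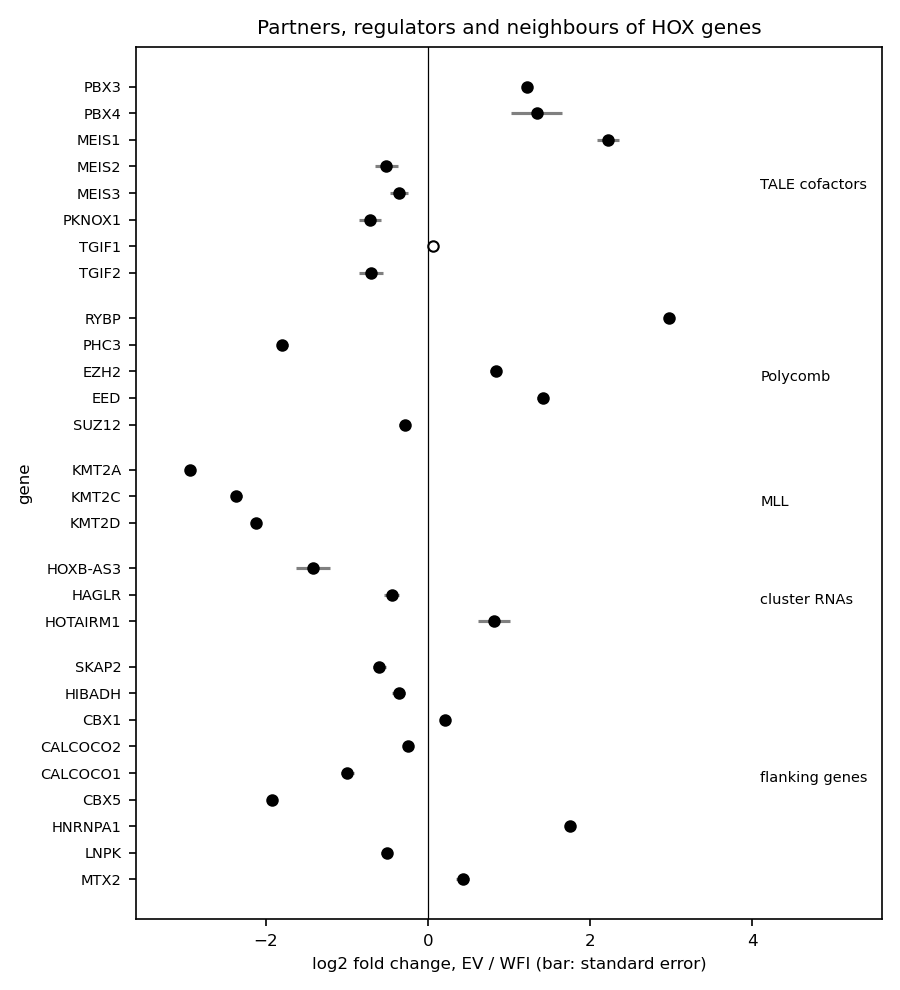
Log2 fold change of EV over WFI for named TALE class genes, Polycomb and MLL genes, noncoding cluster genes and genes flanking the clusters, with bars for the standard error. Filled points were called by edgeR at an adjusted p below 0.05 and the open point, TGIF1, was not. RYBP at 2.97 is highest and KMT2A at -2.94 lowest.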

How the data were processed

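Per the labels' protocols, total RNA of HT1376 cells was made into libraries with a directional kit. The authors deposited whole-number counts per Ensembl gene, with no normalization. Per the submitters' processing notes the build was hg38. Aligner, counter, strand setting and annotation: not given in the sources used here. Of 61860 identifiers, 61757 matched a symbol. Positions and merged exon lengths came from GENCODE 29 (97.8% of tested genes had a length), and promoter windows, listed for 20 of the 39 HOX genes, from RefSeq (GRCh38.p14).

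Counts were tested with edgeR 4.0.16 in R 4.3.3 (TMM, filterByExpr on the group, quasi-likelihood test, group as the only term, Benjamini-Hochberg over all 17465 genes tested). The filter asks for about 10 counts in at least 2 samples. A standard error is the log2 fold change divided by the square root of F. A fold bound against 0 uses a floor of 3 counts per library and covers counting error only. The settings varied were the tool (DESeq2 1.42.0), the scaling (RLE, upper quartile), the low-count filter (absent, or 50 counts in 2 samples), a block for the replicate number, the omission of each sample, a minimum absolute log2 fold change of 1, and an offset for spliced length, for which each sample's deviation was smoothed on log2 merged exon length. The fit was tested on simulated data. Both pairs of replicates varied beyond sampling noise, with a chi-square of 2.2 (WFI) and 4.58 (EV) for each degree of freedom, and every library entered as its own sample.

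The members and lists were chosen with earlier results of these data known. Every HOX gene enters the counts, and a few genes that enter them are not reported here by name or drawn. From each other list the 3 genes with the smallest adjusted p were named, and TALE class and flanking genes freely. EZH2, EED, SUZ12, ASXL1, ASXL2, CTCF, RAD21, RXRG, CYP26A1, ALDH1A2, GMNN, HOTAIR, HOTAIRM1 and the microRNA genes were chosen after their values were seen. So were the markers cited.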

Additional observations from a re-analysis of the deposited data

How the results depend on the processing

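Apart from the size rule, 12 of 17 HOX calls held in all 11 alternatives, 4 of 15 uncalled genes gained a call in at least 1, and 9 of the 15 changed sign in at least 1. A minimum absolute log2 fold change of 1 left 3063 higher and 2322 lower genes in all, and 4 and 4 HOX genes. With a replicate block, 7 HOX genes were higher and 8 lower, and the calls of HOXA13 and HOXD12 were lost. The labels do not say that the numbers pair samples, and same-numbered samples did not deviate together (r = 0.0159 across genes), so this is no test of pairing. Leaving out 1 sample gave 7 to 9 higher and 6 to 10 lower HOX genes, and 4926 to 5983 higher and 4611 to 5789 lower genes in all. The number of HOX genes on stayed within 1.5 times its value under every limit and scaling tried. Signs turned in genes near 0 and, with the length offset, in HOXB7 and CALCOCO2. Upper quartile scaling gave log2 fold changes of 0.033 for HOXA2, 0.012 for HOXA4, 0.053 for HOXA5, 0.001 for HOXB2, 0.022 for HOXB5 and 0.022 for HOXB13. The filter of 50 counts gave 0.004 for HOXA4, 0.045 for HOXA5, 0.013 for HOXB5 and 0.013 for HOXB13, and RLE scaling 0.018 for HOXA5. No count filter gave -0.050 for HOXC10, -0.034 for HOXD9 and -0.009 for TGIF1, and the replicate block -0.077 for HOXC10. The length offset gave -0.026 for HOXB7, -0.284 for HOXC10, -0.351 for HOXD9 and 0.066 for CALCOCO2. Leave-one-out ranges that crossed 0 were -0.374 to 0.237 for HOXA2, -0.24 to 0.105 for HOXA4, -0.325 to 0.272 for HOXA5, -0.183 to 0.08 for HOXB5, -0.194 to 0.086 for HOXB13, -0.828 to 0.551 for HOXC10, -0.339 to 0.062 for HOXD3, -0.175 to 0.206 for HOXD9 and -0.004 to 0.077 for TGIF1. The cause of these turns was not tested. Genes under about 10 counts per sample in a group, such as HOXD12 and HOXA13, are limited by depth.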

Other observations

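The microRNA genes inside the HOX clusters were near 0 in these total RNA libraries, whose counts on such genes do not measure the mature microRNA. MIR196A1, beside HOXB9, had 13 and 10 counts under WFI, then 5 and 9 under EV, and MIR10B, beside HOXD4, had 5 and 6 and then 0 and 0. MIR10A, MIR196A2 and MIR196B had 0 counts in all samples, and MIR615 had 1 and 1 counts under WFI, then 0 and 0 under EV. Of the EVX genes at the posterior edge of HOXA and HOXD, EVX1 had 0 counts in all samples and EVX2 had 0 in both controls, then 2 and 7 under EV. PRAC1 and PRAC2, which lie between HOXB9 and HOXB13, were near 0 as well. PRAC1 had 2 and 0 counts under WFI, then 2 and 14 under EV, and PRAC2 had 0 and 1, then 3 and 0, while HOXB13 on their far side stood at 16.8 ± 0.426 CPM in the controls (SD, n = 2).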
